A study of Mus musculus with 4 samples.

Results

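The Trim genes encode the tripartite motif proteins, most of which are ubiquitin ligases built from a RING finger, B-box zinc fingers and a coiled coil. The gene list of the series held 63 symbols made of Trim and a digit, out of 19465 genes, and all 63 were taken. In vertebrates many tripartite motif proteins are induced by interferon and act in antiviral defence, and several others are enriched in neurons, where they act on axons, synapses and the cytoskeleton. A group on mouse chromosome 7 has expanded in rodents into near-identical neighbours. The genes were placed in role groups from general knowledge, with earlier results of these data known. The groups were 14 antiviral and interferon-linked, 9 neuronal and cytoskeletal, 4 with the plant homeodomain and bromodomain of chromatin readers, 10 in membrane traffic, autophagy and protein quality, 4 of striated muscle, and 22 others.

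The levels come from Visium spatial transcriptomics of formalin-fixed, paraffin-embedded mouse brain, 1 section of 5 µm per sample, with 2 rNLS8 and 2 control sections. rNLS8 is a doxycycline-suppressible mouse line in which neurons express human TDP-43 without its nuclear localisation signal, so that the protein gathers in the cytoplasm. In this line the transactivator is driven by the neurofilament heavy chain promoter. All 4 samples, controls included, came from mice that were 11 weeks old and sampled 3 weeks after doxycycline withdrawal, and the labels give the controls no genotype beyond the word control. The labels do not say whether the controls carry either transgene.

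The sections held between 17627577 and 28056089 unique molecular identifiers (UMI), and the Trim genes together 226918. Counts under Tardbp, the symbol of the mouse TDP-43 gene, were 197 and 138 UMI in the rNLS8 sections, against 0 and 0 UMI in the control sections. Whether the probes under this symbol read the mouse transcript, the human transgene or both is not given in the sources used here. These counts are therefore not taken as the level of the mouse gene. The Y-linked genes Ddx3y, Eif2s3y, Kdm5d and Uty summed to 137 and 139 CPM (UMI per 1000000 UMI of the section) in rNLS8 replicates 1 and 2, against 0.0 and 107 in control replicates 1 and 2, although the labels call replicate 1 of each group female. The section labelled rNLS8 replicate 1 therefore does not match its labelled sex, and values without it are given below where they change a count. Between 1900 and 3047 barcodes recurred in each pair of sections, which follows from the fixed set of barcodes on the array. The labels do not number the animals, and p-values measure only the spread between 2 sections per group.

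Of the 63 genes, 56 had at least 1 UMI. Trim50, Trim6, Trim60, Trim61, Trim29, Trim43c and Trim52 had 0 UMI in every section. Another 19 had between 1 and 42 UMI in all and did not pass edgeR's filter on low counts, which left 37 genes for whole sections. A gene that passes only through the group where it is high cannot come out equal, so counts over these 37 are descriptions. Levels are given as CPM after trimmed-mean scaling and are compared between sections for 1 gene at a time, since the number of probes per gene is not given in the sources used here. In spots that hold several cells, fewer cells of a type and less RNA per cell cannot be told apart.

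In whole sections no Trim gene passed the test between rNLS8 and control. edgeR's quasi-likelihood test with Benjamini-Hochberg adjustment called 0 of the 37, and 0.0% of the 13444 genes tested, and the lowest adjusted p of a Trim gene was 0.173. At an unadjusted p under 0.05, 8 Trim genes were higher in rNLS8 (21.6%, against 7.22% of all genes) and 5 were lower (13.5%, against 8.35%). DESeq2 called 3 of the 33 Trim genes to which it gave an adjusted p, Trim21, Trim12c and Trim25, beside 4.32% of all its genes, and all 3 were higher in rNLS8. The median log2 fold change was 0.26 over the 37 Trim genes and 0.02 over all genes. Both rNLS8 sections lay above both control sections for 17 Trim genes (45.9%, against 26.9% of all genes) and below them for 8 (21.6%, against 25.3%). The sections differed in anatomy. Meninges and vessels held 17.5% of kept spots in rNLS8 replicate 2, against 8.92% to 9.14% in the others. Cortex held 34.1% there, against 21.3% to 25.4%. With the same mix of regions edgeR again called 0 Trim genes (0.0% of all genes). The log2 fold changes of Trim12c, Trim21, Trim25 and Trim30a were then 2.50, 1.47, 1.09 and 1.28. Without control replicate 2 edgeR called 6 of 42 Trim genes (14.3%), near its 13.5% of all genes. Without rNLS8 replicate 1 it called 3 of 42 (7.14%, against 1.52% of all genes), the same names as DESeq2.

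**Figure D1:**
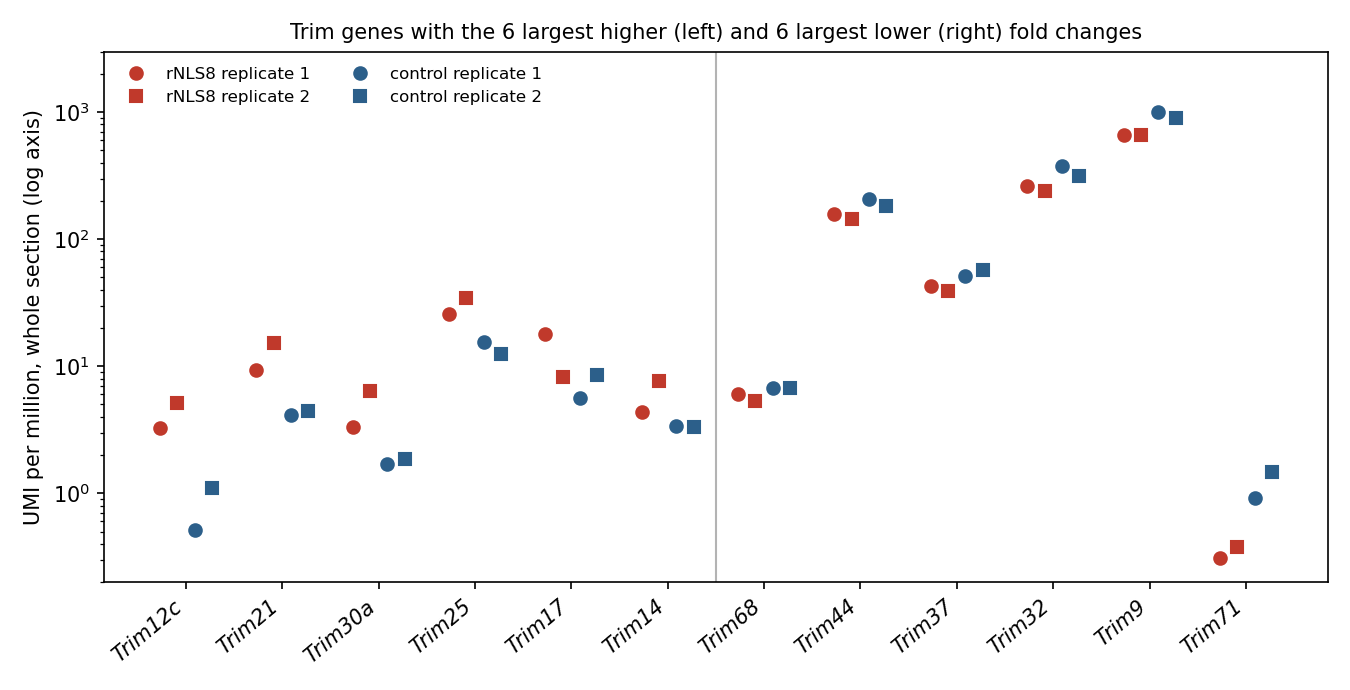
CPM in whole sections (log axis) for the 6 Trim genes with the largest and the 6 with the lowest log2 fold change, 1 point per section, rNLS8 in red and control in blue. The rNLS8 points lie above the control points for Trim12c, Trim21, Trim30a, Trim25 and Trim14, overlap them for Trim17, and lie below them for Trim68, Trim44, Trim37, Trim32, Trim9 and Trim71.

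The antiviral and interferon-linked group held the highest fold changes. Of its 14 members 8 passed the filter, and all 8 were at higher values in rNLS8. Their median log2 fold change was 0.97, beside 0.02 over all genes. In each of the 8 both rNLS8 sections lay above both control sections, beside 26.9% of all genes. None passed the edgeR test. At an unadjusted p under 0.05, 6 were higher, beside 7.22% of all genes. The group was drawn up with earlier results of these data known, so its direction is no independent evidence.

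Trim12c, a mouse relative of the human retroviral restriction factor TRIM5, lies on mouse build mm10 at chr7:104338754-104353358. It had 3.26 and 5.12 CPM in the rNLS8 sections, against 0.513 and 1.10 in the control sections. Both rNLS8 sections were above both control sections, and the counts behind them were 95 and 95 UMI against 9 and 26. Its log2 fold change was 2.33 (SE 0.492, edgeR adjusted p = 0.173). It ran from 1.92 without control replicate 1 to 2.99 without control replicate 2.

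Trim21, the cytosolic receptor that binds antibody-coated particles, lies at chr7:102557920-102565482. Its level was 9.41 and 15.3 CPM in rNLS8 and 4.16 and 4.44 in control. The groups did not overlap, and rNLS8 replicate 2 was the higher of its pair. The log2 fold change was 1.52 (SE 0.313, edgeR adjusted p = 0.173). It ran from 1.13 without rNLS8 replicate 2 to 1.83 without rNLS8 replicate 1.

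Trim25, the ligase that ubiquitinates the viral RNA sensor RIG-I, lies at chr11:88999403-89020294 and had 1956 UMI in all. It reached 25.6 and 34.6 CPM in rNLS8, against 15.6 and 12.5 in control. All rNLS8 values exceeded all control values, with a log2 fold change of 1.10 (SE 0.222, edgeR adjusted p = 0.173). Leaving out 1 section at a time gave log2 fold changes between 0.87 and 1.30.

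Trim30a, an interferon-induced mouse gene known as a brake on NF-kappa-B signalling, lies in the chromosome 7 group at chr7:104409025-104465193. It had 3.30 and 6.36 CPM in rNLS8, against 1.71 and 1.86 in control, again without overlap. The log2 fold change was 1.42 (SE 0.417, adjusted p = 0.234 in edgeR). Trim14, which acts with the antiviral adaptor MAVS at mitochondria, had 4.39 and 7.71 CPM in rNLS8, against 3.37 and 3.34 in control, and a log2 fold change of 0.84 (SE 0.357).

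The other members that passed had smaller differences. Trim56, which acts in sensing of DNA through STING, had 11.1 and 12.7 CPM in rNLS8, against 8.50 and 7.24 in control (log2 fold change 0.60). Trim26 had a log2 fold change of 0.41 and Trim65, which ubiquitinates the RNA sensor MDA5, one of 0.37.

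The copies of Trim30a on chromosome 7 were too low to test. Trim30c had 33 UMI in the rNLS8 sections and 9 in the control sections, a ratio of CPM of 3.17 (95% counting interval 1.48 to 7.52). Trim30d had 23 and 7 UMI in rNLS8 and control, a ratio of 2.84 (1.18 to 7.83). These intervals cover counting error only, not the spread between sections. Trim30b had 10 and 3 UMI, Trim5 had 2 and 1, and Trim34b 1 and 0, in rNLS8 and control. Trim5, Trim12c, Trim34b and the Trim30 copies lie between positions 104263386 and 104507853 of chromosome 7, and how the probes divide signal among such near-identical copies is not given, so their separate values are uncertain.

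The promoters of this group are shown for the interferon-stimulated response element, the sequence that interferon-activated factors bind. Its core was searched as a pair of GAAA motifs with any 2 bases between them, on both strands, in RefSeq windows on GRCm38.p6 of 250 bases before to 50 bases after each start site. Windows were given for 49 of the 63 Trim genes. Trim14 and Trim65 of the antiviral group had none and were not searched. The core was present for 7 of the 49 (14.3%), against 3.99% of the 27025 genes with windows. They were Trim12c, Trim21, Trim30a, Trim30d, Trim26, Trim5 and Trim2. Stretches around it are printed 5′ to 3′ in the direction of the gene, with the core in capitals, where TTTC first means that the core reads on the opposite strand.
Trim12c (chr7:104353350-104353418, minus strand): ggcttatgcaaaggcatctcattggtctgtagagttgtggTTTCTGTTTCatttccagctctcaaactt
Trim30a (chr7:104465194-104465269, minus strand): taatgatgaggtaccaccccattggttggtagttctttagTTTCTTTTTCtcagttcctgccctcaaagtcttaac
Trim30d (chr7:104507850-104507930, minus strand): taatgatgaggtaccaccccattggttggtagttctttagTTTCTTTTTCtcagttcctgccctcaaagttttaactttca
Trim26 (chr17:36836946-36837041, plus strand): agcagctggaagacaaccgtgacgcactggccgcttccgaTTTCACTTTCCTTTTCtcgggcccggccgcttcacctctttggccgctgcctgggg
Trim21 (chr7:102565449-102565474, minus strand): gagagGAAACTGAAAGTGAAAtttgg

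Trim26 and Trim21 each held 2 overlapping cores, and those of Trim21 lay downstream of its start site. The stretches of Trim30a and Trim30d were equal at 75 of 76 bases, and those of Trim12c and its neighbour Trim5 at 67 of 69. Trim12c and Trim30a were equal at 33 of 69. The other searched members of the antiviral group, Trim25, Trim56, Trim30b, Trim30c, Trim34b and Trim6, held no core. Not printed are the stretches of Trim5, of Trim2, and of another start site of Trim30a, whose core lay at bases 3 to 12. The related gamma-activated sequence TTCNNNGAA was present for 6 of the 49 (12.2%), against 9.55% of all genes with windows. A match of letters is a description, and its absence covers only these windows.

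Other genes of the interferon response were measured in the same fits. Of 24 tested genes of an interferon response list, all 24 had higher values in rNLS8 whole sections (the median was 2.11 on the log2 scale) and edgeR called 0, while in cortex it called 10. Bst2, which tethers budding virus, had 71.7 and 101 CPM in rNLS8 cortex, against 6.55 and 8.26 in control cortex, a log2 fold change of 3.54 (edgeR adjusted p = 0.0197). Irf7, a master regulator of type I interferon, had 19.2 and 37.9 in rNLS8 cortex, against 3.97 and 2.90 in control cortex (log2 fold change 3.06, edgeR adjusted p = 0.0427). A nucleic acid sensing list, of sensors and the signalling genes that act after them, had a median log2 fold change of 0.32 in whole sections. Of its 20 genes 16 had higher values in rNLS8. The log2 fold changes ran from -0.38 for Ikbke to 1.76 for Ddx58, 1.87 for Ifih1 and 3.81 for Zbp1. The enzymes that activate and conjugate ubiquitin had a median of -0.06 over 18 genes. In both lists edgeR called 0. Microglial markers were also higher in value: their summed level was 628 and 945 CPM in rNLS8, against 383 and 468 in control, all 10 had higher values, and none was at 0. Leukocyte markers summed to 16.7 and 19.2 in rNLS8, against 6.45 and 4.82 in control, with Cd8a and Nkg7 at 0. Of the 8 listed only 2 passed the filter, Ptprc and Ccl5, and most of each sum came from them. Ptprc had 8.03 and 11.6 CPM in rNLS8, against 6.27 and 4.78 in control. Ccl5, a chemokine, had 8.31 and 7.39 in rNLS8, against 0.057 and 0.0 in control. The part of these cells in the Trim values was not tested.

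**Figure D2:**
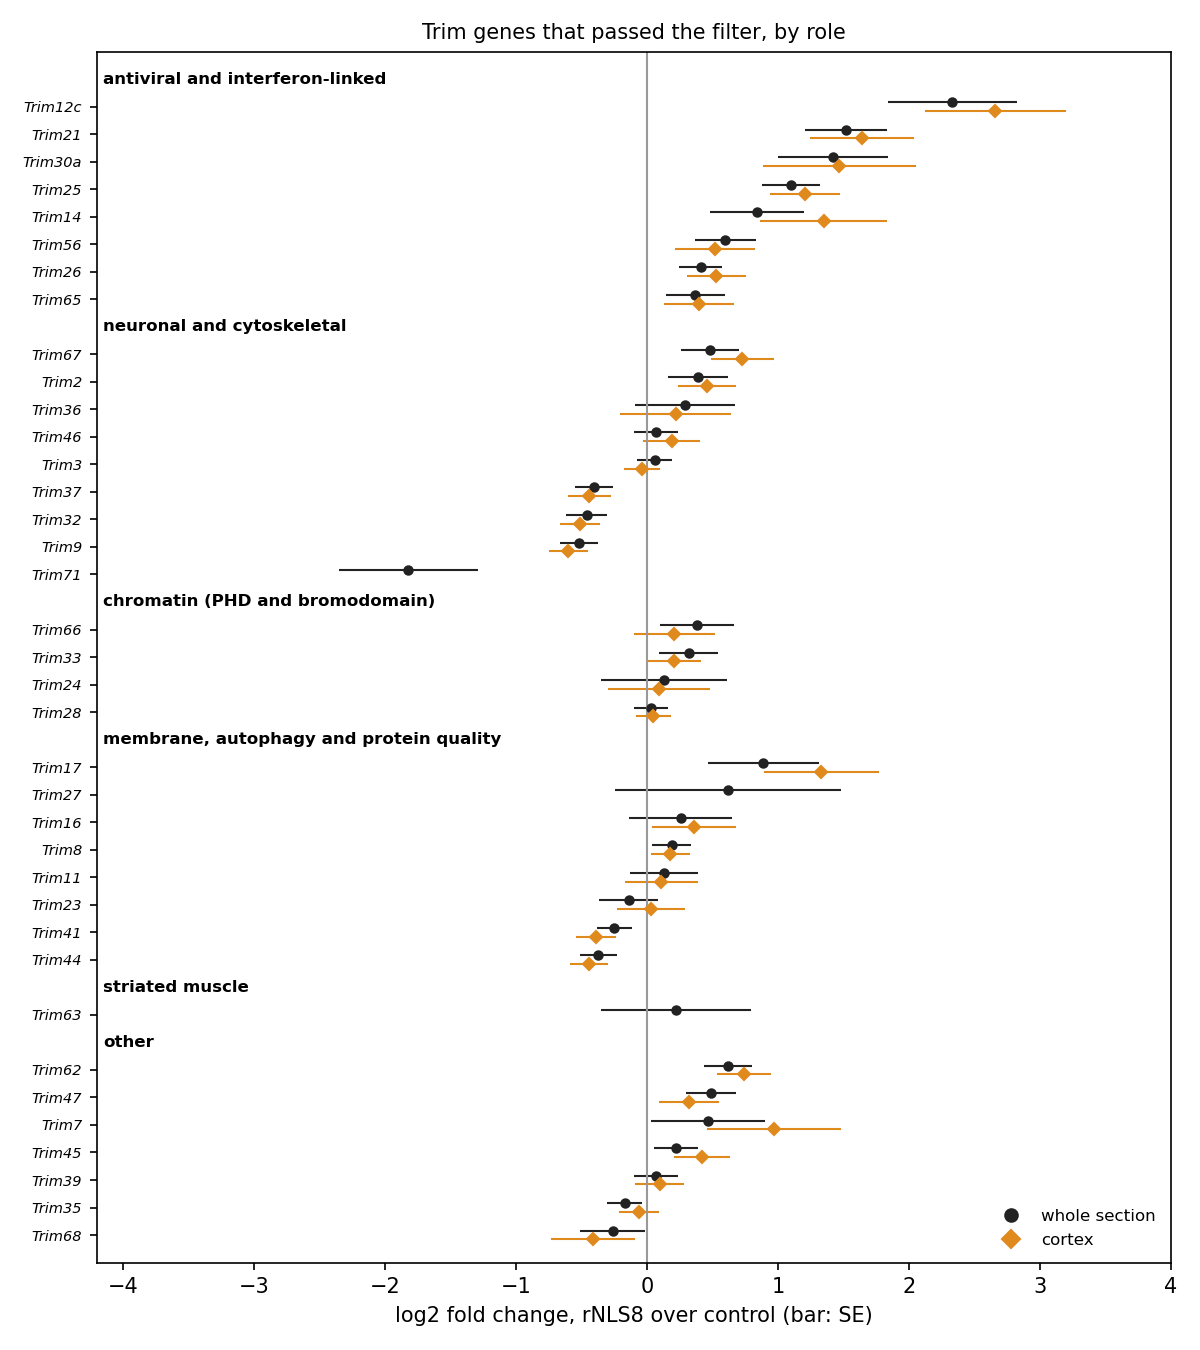
Log2 fold change of rNLS8 over control with its SE for the Trim genes that passed the filter, by role group, in whole sections (black circles) and in cortex (orange diamonds). All 8 antiviral members lie right of 0, while the neuronal group spreads to both sides, from 0.48 for Trim67 to -1.82 for Trim71 in whole sections.

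The neuronal and cytoskeletal group split. All 9 members passed the filter, 5 with higher and 4 with lower values in rNLS8, and the median log2 fold change was 0.06. Each of the 4 lower members had both rNLS8 sections below both control sections, beside 25.3% of all genes. Each also had an unadjusted p under 0.05, beside 8.35% of all genes that were lower at that threshold. None passed the edgeR test after adjustment.

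Trim9, a brain-enriched ligase that binds the fusion protein SNAP25 and shapes axon branching, had the highest count of all Trim genes, 70082 UMI. Its level was 656 and 666 CPM in rNLS8, against 999 and 892 in control. The rNLS8 pair lay close together and below both controls, with a log2 fold change of -0.52 (SE 0.147, edgeR adjusted p = 0.224). Trim32, a ligase mutated in a limb-girdle muscular dystrophy, had 263 and 238 in rNLS8 and 376 and 313 in control (log2 fold change -0.46, SE 0.157). Trim37, which controls centrosome number and is mutated in Mulibrey nanism, had 42.8 and 39.2 in rNLS8 and 51.5 and 56.8 in control (-0.40, SE 0.145). For both genes the groups did not overlap.

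Trim71, a stem cell regulator that is a target of the let-7 microRNA, had the lowest fold change of any Trim gene, at very low counts. It had 9 and 7 UMI in the rNLS8 sections, against 16 and 35 in the control sections, or 0.309 and 0.377 CPM against 0.913 and 1.48. The log2 fold change was -1.82 (SE 0.529, edgeR adjusted p = 0.231).

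The other 5 members had higher values in rNLS8. Trim2, which ubiquitinates neurofilament light chain, had 250 and 261 CPM in rNLS8, against 152 and 238 in control. Control replicate 1 stood apart from the other 3 sections, and the log2 fold change of 0.39 (SE 0.227) became 0.10 without it. Trim67, the closest relative of Trim9, had 15.2 and 15.8 in rNLS8, against 12.5 and 9.73 in control (log2 fold change 0.48, SE 0.221). Trim3 and Trim46, the organiser of parallel microtubules in the proximal axon, had log2 fold changes of 0.06 and 0.07 with overlapping sections. Neuronal markers summed to 4950 and 5600 CPM in rNLS8, against 7640 and 6440 in control, and most of each sum was Snap25 and Slc17a7. Of the 6 markers 1, Rbfox3, had a higher value in rNLS8, and edgeR called 0. None was at 0, and their part in these values was not tested.

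Among the remaining groups no gene passed the test either. Trim28, the corepressor that works with KRAB zinc finger proteins, had 200 and 191 CPM in rNLS8 and 194 and 190 in control, and a log2 fold change of 0.03 whose sign turned to -0.01 without rNLS8 replicate 1. The other chromatin members had log2 fold changes between 0.13 and 0.38. Trim44, which lacks a RING finger and counters ubiquitination, had 157 and 145 in rNLS8, below 207 and 182 in control (-0.37, SE 0.142). Trim8 had 143 and 159 in rNLS8 and 143 and 122 in control (0.19, SE 0.15).

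Trim17, a ligase linked to neuronal apoptosis in mouse neurons, had 18.0 and 8.30 CPM in rNLS8, against 5.65 and 8.59 in control. Here rNLS8 replicate 1 alone was high, and the log2 fold change of 0.89 (SE 0.422) became 0.22 without it. Trim62 had 34.8 and 33.1 in rNLS8, against 19.3 and 24.8 in control, with no overlap (log2 fold change 0.62, SE 0.181, edgeR adjusted p = 0.229). Trim68 had 6.01 and 5.28 in rNLS8, against 6.79 and 6.77 in control (-0.26, SE 0.248). Of the striated muscle members only Trim63, the atrophy ligase MuRF1, passed the filter, at 0.824 and 1.02 in rNLS8 and 1.14 and 0.465 in control.

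The series title names the cortex, and the same comparison was made on spots that cortical markers assigned to it: 771 and 905 spots in the rNLS8 sections and 877 and 704 in the control sections. Clusters that met no region's rule stayed unnamed and held 28.6% and 28.8% of the kept spots in rNLS8, against 40.8% and 44.2% in control. One of the 5 cortical clusters was led by Cst7 and Cxcl10, genes of reactive microglia and of interferon response, followed by Adra1d and Pvalb. This cluster was not confined to rNLS8, with 308 and 253 spots in rNLS8 and 239 and 231 in control. edgeR called 0 of the 34 Trim genes that passed the filter in cortex, while it called 0.878% of 12190 genes. The lowest adjusted p was 0.0739, for Trim12c. At an unadjusted p under 0.05, 8 Trim genes were higher (23.5%, against 9.39% of all genes) and 5 lower (14.7%, against 10.8%). Both rNLS8 sections lay above both controls for 19 Trim genes (55.9%, against 28.7%) and below them for 6 (17.6%, against 26.5%). DESeq2 called 3 of 28, Trim21 and Trim25 as higher and Trim9 as lower, beside 6.37% of its genes. Without control replicate 2 edgeR called 12 of 34 Trim genes (35.3%), near its 31.8% of all genes. It called 4 without control replicate 1 (11.8%, against 9.63%) and 2 without rNLS8 replicate 1, Trim21 and Trim25 (5.88%, against 1.45%).

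The antiviral group had a median log2 fold change of 1.28 in cortex over the 8 members that passed. Trim12c had 3.44 and 4.63 CPM in rNLS8 cortex, against 0.345 and 0.870 in control cortex (log2 fold change 2.66, SE 0.539). Trim25 had 21.6 and 30.8 in rNLS8, against 12.9 and 9.71 in control (1.21, SE 0.267, edgeR adjusted p = 0.0833). Trim21 had 7.23 and 13.2 in rNLS8, against 3.62 and 2.90 in control (1.64, SE 0.396, edgeR adjusted p = 0.0972). In all 3 genes the groups were apart.

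Trim30a and Trim14 were also higher in value in rNLS8 cortex, and in both replicate 2 was the high section. Trim30a had 3.10 and 8.65 CPM in rNLS8, against 1.55 and 2.61 in control (log2 fold change 1.47, SE 0.585, and 0.56 without rNLS8 replicate 2). Trim14 had 3.67 and 7.56 in rNLS8, against 1.72 and 2.61 in control (1.35, SE 0.484, and 0.75 without rNLS8 replicate 2). Trim17 had 17.0 and 7.80 in rNLS8, against 3.97 and 5.80 in control (1.33, SE 0.439), and without rNLS8 replicate 1 its log2 fold change was 0.67. Microglial markers summed to 716 and 1040 in rNLS8 cortex, against 318 and 412 in control cortex, and edgeR called C1qa, Tyrobp, Cd68 and Trem2 higher. Their part in the Trim values was not tested.

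Neuronal genes were again among the lower values in cortex. Trim9 had 659 and 633 CPM in rNLS8 cortex, against 1040 and 909 in control cortex (log2 fold change -0.60, SE 0.15, edgeR adjusted p = 0.105). Trim32 had 278 and 255 in rNLS8, against 410 and 350 in control (-0.51, SE 0.152). For Trim37 and Trim44 the log2 fold change was -0.44, for Trim68 -0.41, and for Trim41 -0.39. These 6 were picked as the lowest fold changes, and Trim44, Trim68 and Trim41 are outside the neuronal group. In each of the 6 the rNLS8 sections were below the controls, beside 26.5% of all genes. Summed neuronal markers were 7030 and 6910 in rNLS8 cortex, against 11300 and 9890 in control cortex, and most of each sum was Snap25 and Slc17a7. Snap25 had 3130 and 2550 in rNLS8, against 5020 and 5670 in control. Slc17a7 overlapped, at 3600 and 4110 in rNLS8 and 6070 and 3930 in control. Of the 6 markers 2, Rbfox3 and Gad2, had higher values in rNLS8. The part of these markers in the Trim values was not tested.

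The same comparison was made in striatum, in fibre tracts, in meninges and vessels, and in claustrum and endopiriform nucleus, each with at least 50 spots in every section. edgeR called no Trim gene in any of the 4, of 33, 25, 27 and 21 that passed the filter. It called 0.827%, 2.09%, 0.427% and 2.98% of all genes there, in that order. In striatum 7 Trim genes were higher and 2 lower at an unadjusted p under 0.05, beside 6.98% and 8.6% of all genes. In fibre tracts 4 were higher and 1 lower, beside 8.1% and 8.2%. In meninges and vessels 3 were higher and 2 lower, beside 4.92% and 6.42%, and in claustrum and endopiriform nucleus 2 and 3, beside 7.93% and 9.52%. DESeq2 called Trim9 as lower in striatum (3.64% of all its genes were called) and in fibre tracts (2.6%). It called 0 Trim genes in meninges and vessels, beside 3.51%, and 0 in claustrum and endopiriform nucleus, beside 6.15%. Without control replicate 2 edgeR called 4, 2, 4 and 3 Trim genes in striatum, fibre tracts, meninges and vessels, and claustrum and endopiriform nucleus, beside 12.3%, 7.03%, 13.6% and 12.9% of all genes. Those are 12.1%, 7.14%, 13.8% and 13.0% of the Trim genes tested, near the shares of all genes. Without control replicate 1 it called 2, 1, 2 and 1 in the same order, beside 5.43%, 2.83%, 3.04% and 6.07% of all genes.

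Trim25 had both rNLS8 sections above both controls in each of the 5 regions, and an unadjusted p under 0.05 in each. In meninges and vessels it had 56.8 and 61.1 CPM in rNLS8, against 37.9 and 23.5 in control (log2 fold change 1.00). In claustrum and endopiriform nucleus it had 25.8 and 36.8 in rNLS8, against 14.6 and 6.6 in control (log2 fold change 1.56, SE 0.441, edgeR adjusted p = 0.0759). In fibre tracts the values were 32.6 and 41.0 in rNLS8 and 16.1 and 14.7 in control (1.23, SE 0.339, edgeR adjusted p = 0.0879).

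Trim9 lay below the controls in every one of the 5 regions, also with an unadjusted p under 0.05 in each. In striatum it had 648 and 684 CPM in rNLS8, against 964 and 921 in control (log2 fold change -0.50, SE 0.152, edgeR adjusted p = 0.171). In fibre tracts it had 524 and 542 in rNLS8, against 821 and 788 in control (-0.59, SE 0.163, edgeR adjusted p = 0.0874). Regions of a section share their library, so their values are not independent of each other. Trim21 was less even: in claustrum and endopiriform nucleus it had 5.73 and 13.6 in rNLS8, overlapping 5.31 and 7.70 in control.

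**Figure D3:**
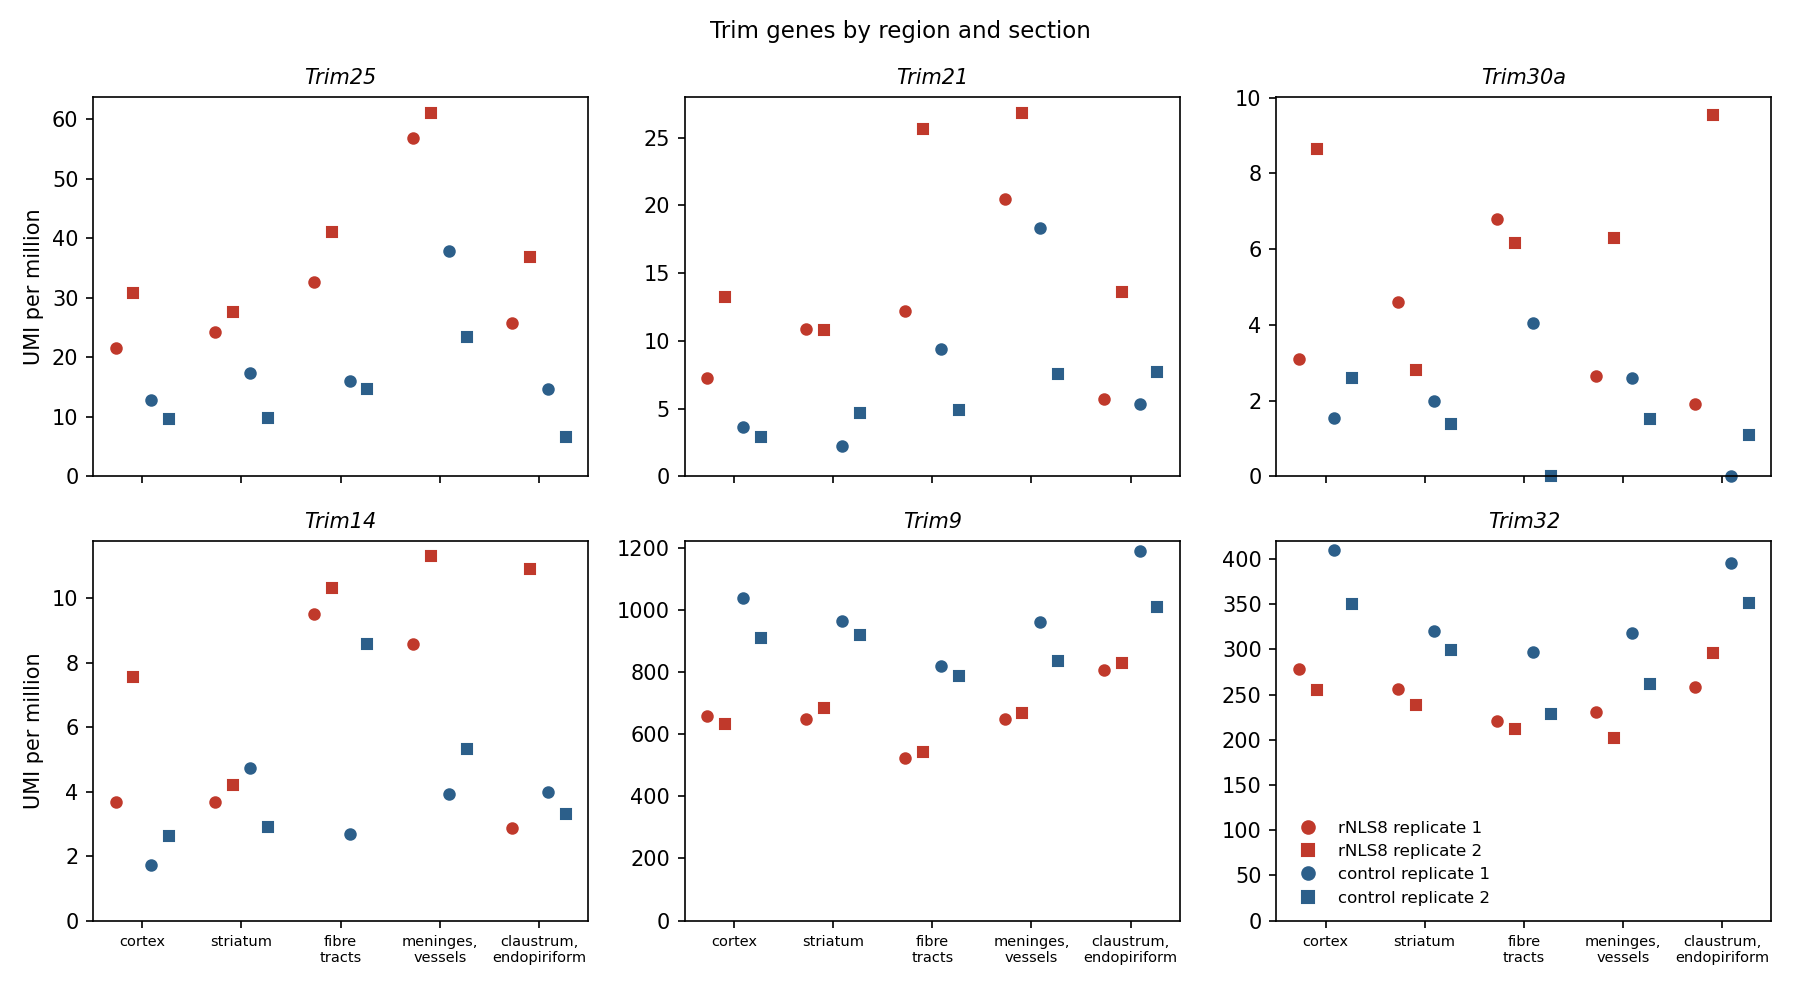
CPM of 6 Trim genes in 5 regions, 1 point per section, rNLS8 in red left of control in blue, on linear axes that start at 0. Trim25 is above and Trim9 below the controls in all 5 regions, whereas Trim14 overlaps between the groups in striatum and in claustrum and endopiriform nucleus.

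Whether the cortex differed from the rest in its response was tested directly, with the section as a block. edgeR called 0 of 36 Trim genes in the difference between the cortex effect and the effect elsewhere, beside 0.456% of all genes (0.24% with a positive and 0.217% with a negative difference), and DESeq2 called 0 of 18, beside 0.232%. At an unadjusted p under 0.05 it was positive for 2, Trim17 and Trim23, and negative for 1, Trim63, beside 4.48% and 5.88% of all genes. The lowest adjusted p was 0.435. Trim17 had a difference of 0.58 on the log2 scale (SE 0.252).

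Where each gene is expressed could be tested within sections, which gave narrower errors. Between striatum and cortex edgeR called 11 of 34 Trim genes (32.4%), against 37.6% of all genes, and DESeq2 called 3, against 22.5%. The 6 higher in striatum (18.0% of all genes were) were Trim68, Trim17, Trim11, Trim62, Trim46 and Trim35, and the 5 lower (19.6%) were Trim66, Trim3, Trim32, Trim37 and Trim8.

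Trim3, a ligase of the postsynaptic side and of endosomal transport, had the lowest adjusted p. It had 76.6 and 78.9 CPM in the striatum of rNLS8 and 65.6 and 68.6 in that of control, against 110 and 110 in rNLS8 cortex and 112 and 120 in control cortex. It was lower in striatum in 4 of 4 sections, with a log2 difference of -0.65 (SE 0.0657, edgeR adjusted p = 7.78e-07). Trim66, a testis-enriched relative of Trim24, averaged 2.27 ± 0.659 in striatum and 5.05 ± 0.469 in cortex (SD, n = 4), a log2 difference of -1.11 (SE 0.25).

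Trim11, a ligase of nuclear protein quality control, averaged 81.3 ± 18.2 CPM in striatum and 57.4 ± 13.9 in cortex (SD, n = 4). It was higher in striatum in 4 of 4 sections (log2 difference 0.48, SE 0.0871, edgeR adjusted p = 0.000345). Trim46 averaged 40.9 ± 3.31 in striatum and 31.4 ± 5.17 in cortex (log2 difference 0.37), and Trim62 32.5 ± 10.0 in striatum and 23.9 ± 7.0 in cortex (0.43). Trim68 and Trim17 were higher by 0.79 and 0.71, and Trim35 by 0.21 in 3 of 4 sections. Trim32, Trim37 and Trim8 were lower in striatum by log2 differences of -0.23, -0.22 and -0.18, each in 4 of 4 sections. Without control replicate 1 the count was 7 of the Trim genes (19.4%, against 29.5% of all genes), and without rNLS8 replicate 1 it was 8 (22.2%, against 29.8%), with Trim68, Trim37, Trim35 and Trim8 no longer called and Trim30a called. Trim11, Trim17, Trim3, Trim62 and Trim66 were called with each section left out in turn. DESeq2's 3 were Trim3, Trim11 and Trim32.

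Fibre tracts, the myelin-rich white matter, differed from cortex in 12 of 33 Trim genes (36.4%), against 31.1% of all genes. Trim14, Trim68, Trim21, Trim56, Trim47 and Trim11 were higher (13.4% of all genes were), and Trim37, Trim32, Trim3, Trim44, Trim9 and Trim8 lower (17.7%). Of the 8 antiviral members tested 3 were called higher, Trim14, Trim21 and Trim56, and 5 were not called, among them Trim30a at 0.02, Trim26 at -0.03 and Trim65 at -0.21. Of the 8 neuronal members tested 4 were called lower, Trim37, Trim32, Trim3 and Trim9, and 4 were not called, among them Trim36 at 1.08, Trim67 at 0.35 and Trim46 at 0.11.

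Trim32 averaged 234 ± 40.1 CPM in fibre tracts and 327 ± 73.5 in cortex (SD, n = 4). It was lower in tracts in 4 of 4 sections (log2 difference -0.47, SE 0.0644, edgeR adjusted p = 2.16e-08). Trim9 averaged 652 ± 157 in tracts and 821 ± 206 in cortex (-0.33, SE 0.0519, edgeR adjusted p = 5.1e-07), and was still detected at over 500 CPM in every section's tracts. Trim37 was lower by -0.73 (SE 0.129), Trim3 by -0.36, Trim44 by -0.34 and Trim8 by -0.24 on the log2 scale.

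Trim21 had 11.9 and 24.7 CPM in the tracts of rNLS8 and 9.29 and 4.76 in those of control, against 7.33 and 13.3 in rNLS8 cortex and 3.72 and 2.89 in control cortex. Each section had more in its tracts than in its cortex (log2 difference 0.94, SE 0.306, edgeR adjusted p = 0.0142). Trim14 had a log2 difference of 1.09 (SE 0.375) and Trim56 one of 0.80 (SE 0.259), each higher in 4 of 4 sections. Trim68, Trim47 and Trim11 differed by 1.08, 0.53 and 0.40. DESeq2 called 5, beside 17.0% of its genes: Trim44, Trim32, Trim11, Trim37 and Trim9. Without rNLS8 replicate 1 edgeR called 6 (18.2%), beside 2416 of 12091 genes in all, and of the antiviral members Trim21 alone. Of the 12 calls 5 held with each section left out in turn, those of Trim3, Trim32, Trim37, Trim44 and Trim9, and none of the antiviral members was among them.

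**Figure D4:**
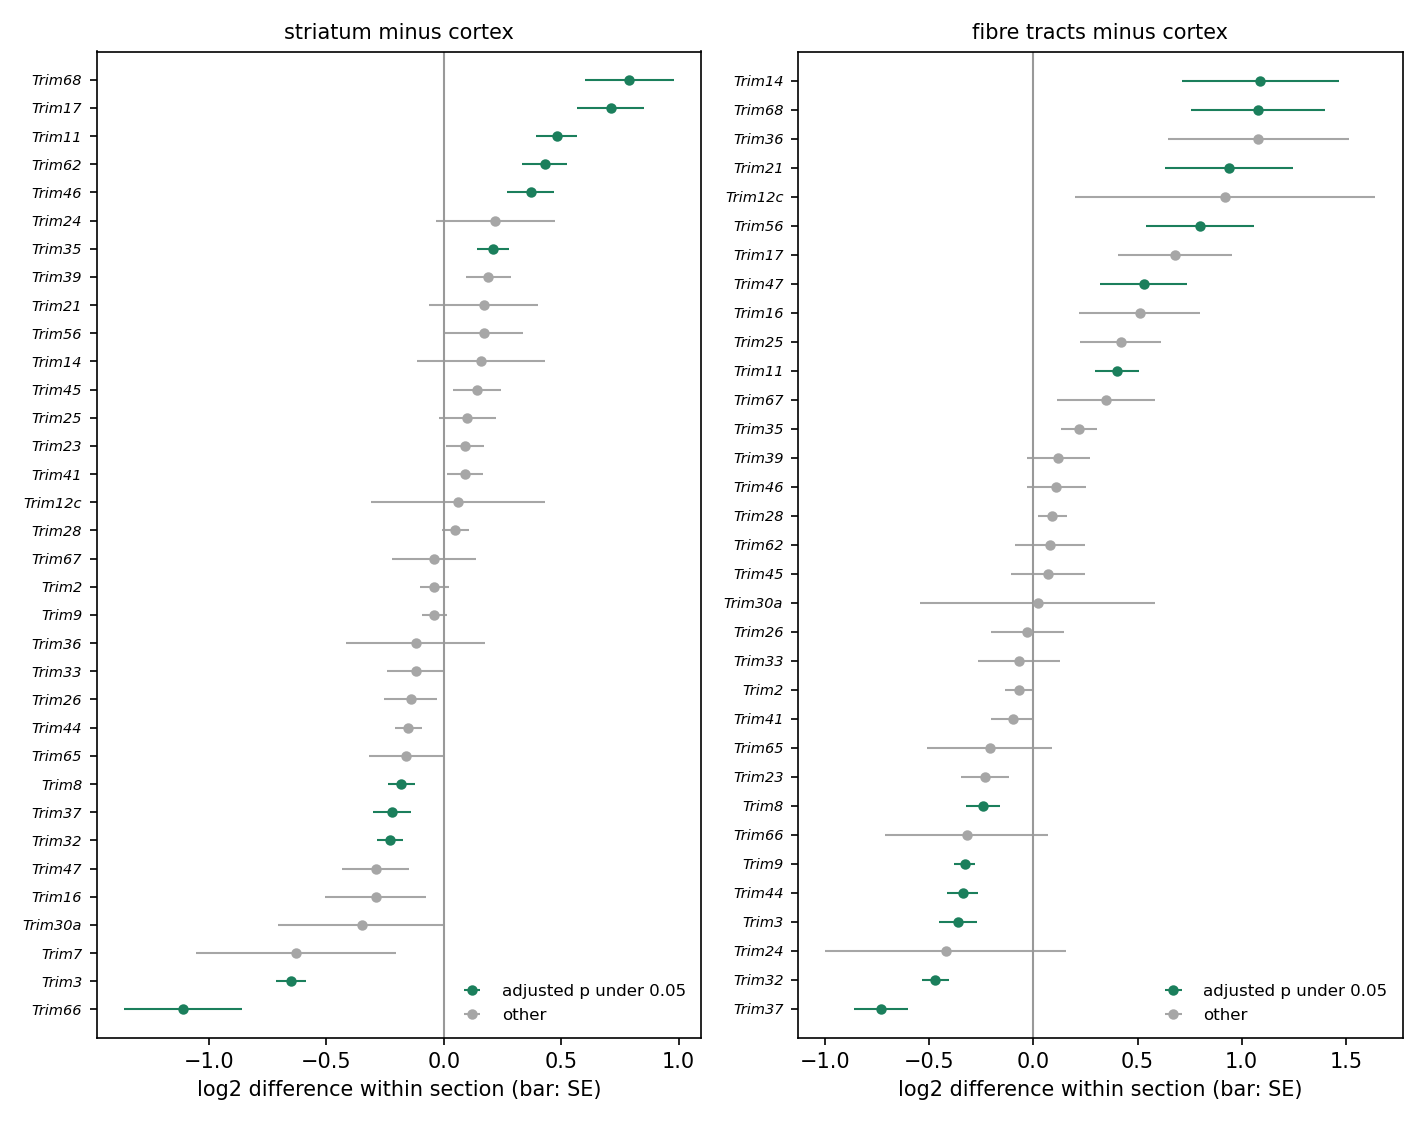
Log2 difference within sections with its SE for each Trim gene tested, striatum minus cortex (left) and fibre tracts minus cortex (right), over 4 sections; green marks an edgeR adjusted p under 0.05. Trim68, Trim17 and Trim11 are highest among those marked for striatum, and Trim14, Trim68 and Trim21 for fibre tracts, while Trim37 and Trim32 are lowest among those marked for tracts.

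Within the cortex, Cst7 marks disease-associated microglia, and 122 and 246 cortical spots of rNLS8 replicates 1 and 2 held a Cst7 UMI, against 2 and 2 in control. In the rNLS8 sections 32 Trim genes had at least 20 cortical UMI in both to compare spots with and without Cst7, as a description with 95% counting intervals that leave out the spread between sections. Trim14 was the 1 gene whose interval lay above 1 in both sections. Its level was 9.53 CPM in spots with Cst7 and 2.85 in spots without in replicate 1, and 13.6 and 5.73 in replicate 2. The ratios were 3.35 (1.49 to 7.19) and 2.38 (1.40 to 4.04), from 12 and 30 UMI in the spots with Cst7.

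Other members of the antiviral group varied. Trim30a had ratios of 1.59 (0.527 to 4.09) and 2.20 (1.34 to 3.61), and Trim56 of 1.48 (0.814 to 2.56) and 2.37 (1.38 to 4.07). Trim25 had ratios of 1.32 and 1.11 and Trim21 of 1.05 and 1.27, with every interval across 1. Every interval also lay across 1 for Trim12c, at 1.40 and 0.676, and for Trim26, at 1.04 and 1.04. Trim65 was the 1 gene whose interval lay below 1 in both sections, at 0.414 (0.147 to 0.940) and 0.476 (0.234 to 0.889). Outside the group, Trim9 had ratios of 0.951 (0.883 to 1.02) and 0.903 (0.849 to 0.961), and Trim16 of 0.827 (0.34 to 1.75) and 2.30 (1.34 to 3.92).

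**Figure D5:**
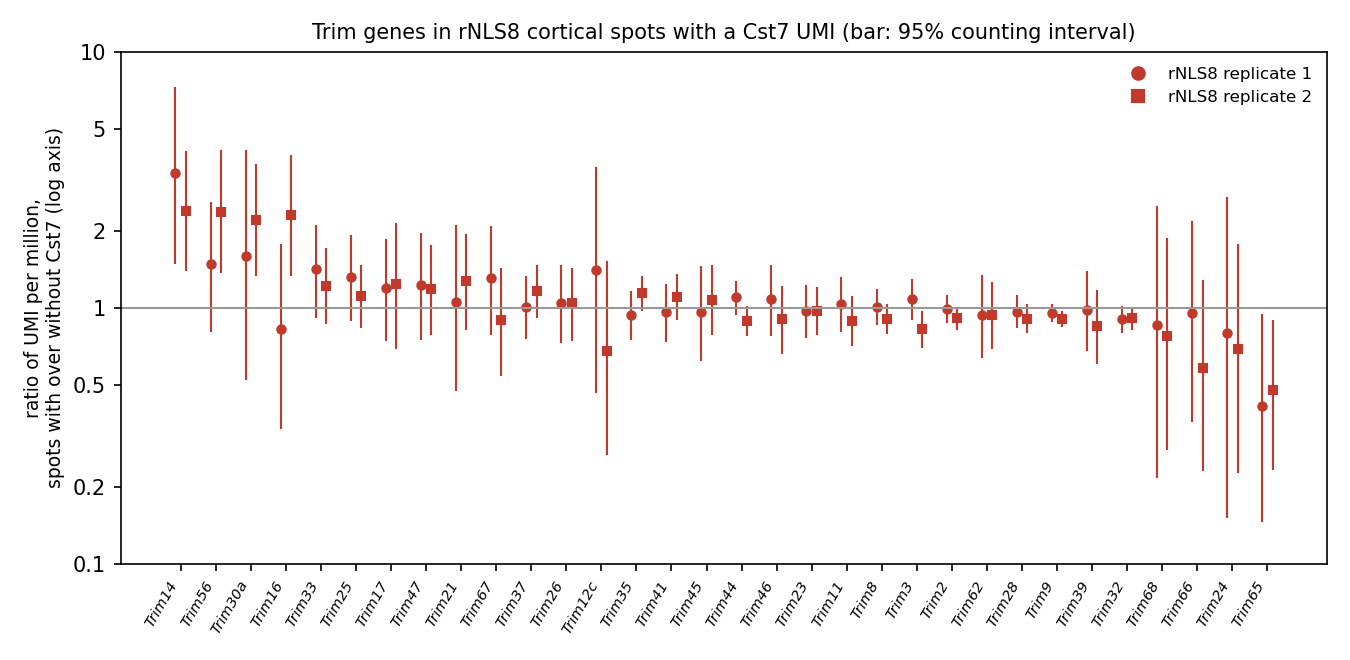
Ratio of CPM in rNLS8 cortical spots with a Cst7 UMI over spots without (log axis), for 32 Trim genes in rNLS8 replicates 1 (circles) and 2 (squares), with 95% counting intervals. Trim14 is highest and Trim65 lowest, and most genes lie near 1.

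The deposited tables also give Moran's I per section, a score of how far spots with like levels lie together, near 0 for a scattered gene. Of the 63 Trim genes 14 were counted in at least 10% of spots in every section, and limma called 0 of them between the groups, beside 0.0316% of 6321 genes. At an unadjusted p under 0.05, 2 were lower in rNLS8, Trim35 and Trim32 (14.3%, against 12.4% of all genes). Scores were lower in rNLS8 for 12 of the 14, and for 81.5% of all genes. Trim9 had the highest mean score in control, and its values were 0.0871 and 0.0399 in rNLS8, against 0.0825 and 0.0872 in control. Trim32 had 0.0267 and 0.0177 in rNLS8, below 0.0629 and 0.0706 in control (adjusted p = 0.336 in limma). Moran's I depends on depth, and the rNLS8 sections had medians of 9772 and 6315.5 UMI per spot under tissue, against 5074 and 6011 in control. The part of depth in these scores was not tested.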

How the data were processed

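Raw UMI counts for each gene in each spot were deposited, made with Space Ranger 2.1.0 per the file headers, on build mm10 per the submitters' processing notes. Per the file headers, the deposited spatial tables give Moran's I as a score, its p-value before and after adjustment, and the scaled mean signal over spots; those p-values and the signal were not used. The probe set is not given in the sources used here.

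Spots with at least 500 UMI were kept. Counts of each spot and its array neighbours were summed, 2000 variable genes without Trim and response genes were scaled to 10000 and standardised within sections, and 30 components and 5 neighbours per section fed Leiden clustering at resolution 1 (leidenalg 0.10.2). Clusters took a region's name from its markers (log2 lead of at least 0.5, and 0.25 over other classes). Basal forebrain and ependyma fell under 50 spots in a section and were not tested.

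UMI were summed per section and region. edgeR 4.0.16 (TMM, default filter, quasi-likelihood) was fitted on all genes. DESeq2 1.42.0 was the alternative, and limma 3.58.1 with trend tested Moran's I. The scripts were tested on simulated data. Members and lists were chosen with earlier results of these data known. Named were genes called in any comparison, the 6 highest and 6 lowest fold changes in whole sections and in cortex, the 6 highest control levels, and genes at 0. A sentence that names a gene outside this rule does so after its values were seen. Replicate sections differed beyond counting error, with a chi-square per degree of freedom of 18.5 in rNLS8 and 46.2 in control.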

Additional observations from a re-analysis of the deposited data

How the results depend on the processing

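Of 461 alternative values of 53 results on single Trim genes, 376 kept their direction and their side of the threshold, 46 lost the threshold, 36 passed it and 3 turned sign. All 3 were Trim28, at -0.01 in whole sections without rNLS8 replicate 1, -0.01 in cortex with clusters that lead with a cortical marker, and -0.02 in cortex without control replicate 2. Over the sections left out in turn its log2 fold change ran from -0.01 to 0.07 in whole sections and from -0.02 to 0.08 in cortex. The number of Trim genes called in whole sections, 0 with edgeR's filter, was 3 with DESeq2, 3 with no filter (1.43% of all genes), and 0 to 6 when each section was left out (0.0144% to 13.5%). In cortex it was 3 with DESeq2 (6.37%), 2 with no filter (2.45%) and 0 to 12 without 1 section (0.518% to 31.8%, beside 0.878%). In the other regions together it was 2 with DESeq2, 8 with no filter and 0 to 13 without 1 section. For striatum against cortex it was 11, 3 with DESeq2, 10 with RLE size factors, 12 with no filter and 7 to 9 without 1 section, and for fibre tracts against cortex 12, 5 with DESeq2, 15 with RLE size factors, 11 with no filter and 6 to 10 without 1 section. With no filter, edgeR called 4.84% of all genes in striatum and 3.49% in fibre tracts. It called 1.99% in meninges and vessels and 3.91% in claustrum and endopiriform nucleus. Between striatum and cortex the shares of all genes were 37.6% with RLE size factors, 30.4% with no filter and 22.5% with DESeq2. Between fibre tracts and cortex they were 30.8%, 23.7% and 17.0%, in the same order. The cause of the changes in the Trim counts was not tested. The replicate numbers were not shown to pair the sections: the difference of replicate 1 minus replicate 2 correlated between rNLS8 and control at -0.00229 over 13444 genes. With the replicate block edgeR called 0 Trim genes in whole sections (0.58% of all genes), 3 in cortex (Trim21, Trim12c and Trim25, beside 5.0%) and 1 in the other regions (Trim21 in striatum, beside 4.49%). The difference of effects between cortex and elsewhere and Moran's I gave 0 under every alternative run. Fibre tracts at Leiden resolution 0.5 fell under 50 spots in a section and were not run. Counts behind some named genes were low, at 67 UMI over the 4 sections for Trim71 and 225 for Trim12c.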

Other observations

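Cortical clusters led by markers of upper or of deep layers are set side by side as CPM, here UMI per 1000000 UMI of the cluster, with no test. Trim67 had 22.9 and 16.3 CPM in the deep-layer cluster of rNLS8 and 7.96 and 8.05 in that of control, against 9.83 and 11.4 in rNLS8 and 2.75 and 4.31 in control in the upper-layer cluster, so it was higher in the deep layers in 4 of 4 sections. Trim8 had the other order, at 145 and 157 in rNLS8 and 112 and 107 in control in the deep layers, against 196 and 187 in rNLS8 and 136 and 151 in control in the upper layers. Trim3 was likewise higher in the upper layers in 4 of 4 sections, at 96.3 and 98.2 in rNLS8 and 95.5 and 108 in control in the deep layers, against 117 and 127 in rNLS8 and 107 and 115 in control in the upper layers.

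Tripartite motif proteins under other symbols did not pass the test. Of 8 listed, 3 passed the filter in cortex, and edgeR called 0. Pml, which builds nuclear bodies and is interferon-inducible, had 19.5 and 20.8 CPM in rNLS8 cortex, against 20 and 17.5 in control cortex, overlapping between the groups.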
